A study of Mus musculus with 56 samples.

Results

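The neurotransmitter receptors examined here are the mouse genes whose symbols name an ionotropic glutamate, metabotropic glutamate, GABA-A, glycine, nicotinic or muscarinic receptor subunit. All 71 such genes were found among the 43629 gene identifiers counted in the series, and they fall into 15 subunit families. Membership was set by the symbol and used no measured value, and 66 of the 71 passed the filter on low counts and were tested. The other 5, Chrnd, Chrng, Chrna9, Gabrp and Grm6, had between 11 and 39 counts over all 56 libraries together and were not tested.

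The study isolated ribosome-bound RNA of motor neurons by affinity purification of translating ribosomes (TRAP), and read it beside RNA of the whole spinal cord lysate (SC, called all spinal cord cells in the labels). Every mouse carried the Chat bacTRAP transgene of line DW167, in which the Chat locus on a bacterial artificial chromosome drives a ribosomal protein tagged with green fluorescent protein, so every cholinergic cell of the cord, and not only motor neurons, can be tagged. There were 3 genotypes, Chat bacTRAP with TDP-43 A315T (hTDP-43 A315T, line 95Balo/J, labelled diseased), Chat bacTRAP with wild-type human TDP-43 (hTDP-43WT, line 3cPtrc/J) and Chat bacTRAP alone. Both human TDP-43 transgenes were driven by the prion promoter and were hemizygous, and the mice were females on a C57BL/6J background. Each genotype was taken at 9 and at 14 weeks of age. The hTDP-43 A315T mice gave 5 SC and 5 TRAP libraries at 9 weeks and 4 and 4 at 14 weeks. The hTDP-43WT mice gave 6 SC and 3 TRAP libraries at 9 weeks and 5 and 5 at 14 weeks. The mice with Chat bacTRAP alone gave 6 SC and 4 TRAP libraries at 9 weeks and 5 and 4 at 14 weeks. The labels name the tissue cervical spinal cord, and they do not tie a TRAP library to the SC library of the same animal. The study scored the mice it used for TRAP, but the labels number the replicates without tying a library to an animal. The p-values rest on a spread estimated over all 56 libraries of both fractions together, and not over the compared groups alone. That spread may in part be technical.

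The 31 SC libraries held 17493897 to 86654485 counts and the 25 TRAP libraries 472447 to 255802240. The labelled cell type was checked against its markers. All 10 motor neuron markers were called higher in TRAP, and their summed level was 2557 to 5703 CPM in TRAP (read counts scaled to the size of each library) against 379 to 544 in SC. Mnx1, a motor neuron transcription factor, had a median of 60.6 CPM in TRAP and 4.56 in SC, and Chat, which makes acetylcholine, had 142 and 21.9. Markers of other cells were lower in TRAP without being gone. Gfap, of astrocytes, had a median of 196 CPM in TRAP and 1249 in SC, and Mog, of oligodendrocytes, had 48.5 and 407. Averaged over the glial and endothelial markers, the log2 CPM ran from 3.12 to 4.07 over the hTDP-43 A315T TRAP libraries, from 3.31 to 5.78 over those of hTDP-43WT and from 3.33 to 6.13 over those of Chat bacTRAP alone. Some libraries went against their labels. Lamr1-ps1 was at 0.536 to 3.13 CPM in all 18 hTDP-43 A315T libraries and at no more than 0.0374 in 35 of the 38 control libraries, but 3 control TRAP libraries (hTDP-43WT 14 weeks replicate 5, hTDP-43WT 9 weeks replicate 3 and Chat bacTRAP 9 weeks replicate 4) had 1.27 to 1.96 CPM. Of 1485 library pairs, the closest were hTDP-43 A315T 14 weeks TRAP replicate 3 with the first of these 3 and hTDP-43 A315T 9 weeks TRAP replicate 5 with the last of them, with a chi-square of 1.33 and 1.94 per gene, against 8.25 for the next pair.

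Motor neurons are excited through ionotropic glutamate receptors, which are assembled from 4 subunits, and inhibited through pentameric GABA-A and glycine receptor channels. Acetylcholine reaches them from large cholinergic synapses on the cell body, where the muscarinic M2 receptor is concentrated, and they in turn release acetylcholine onto muscle and onto Renshaw cells through nicotinic receptors. Which subunits a neuron makes sets the speed, the calcium entry and the drug sensitivity of its synapses.

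Promoter sequence is shown for the 2 members with the smallest adjusted p on each side of the comparison of TRAP with SC, Chrm2 and Glrb higher in TRAP and Chrna4 and Grik3 lower. Other members had larger changes, and Glrb stayed under 2-fold. The windows hold the 250 bases before the RefSeq transcription start (build GRCm38.p6), at chr6:36387834-36388083 on the plus strand for Chrm2, chr3:80913661-80913910 on the minus strand for Glrb, chr2:181039178-181039427 on the minus strand for Chrna4 and chr4:125490446-125490695 on the plus strand for Grik3. Capitals mark the GC box GGGCGG on either strand.
Chrm2: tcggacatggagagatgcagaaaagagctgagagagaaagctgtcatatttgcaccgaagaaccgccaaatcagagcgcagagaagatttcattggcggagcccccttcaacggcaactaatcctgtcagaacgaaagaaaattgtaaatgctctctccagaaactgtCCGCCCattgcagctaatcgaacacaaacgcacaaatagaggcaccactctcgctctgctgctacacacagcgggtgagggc
Glrb: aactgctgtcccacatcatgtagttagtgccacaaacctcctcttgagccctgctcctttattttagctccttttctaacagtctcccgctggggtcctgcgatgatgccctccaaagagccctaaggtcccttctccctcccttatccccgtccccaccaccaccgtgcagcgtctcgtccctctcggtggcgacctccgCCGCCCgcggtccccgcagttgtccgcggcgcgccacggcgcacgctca
Chrna4: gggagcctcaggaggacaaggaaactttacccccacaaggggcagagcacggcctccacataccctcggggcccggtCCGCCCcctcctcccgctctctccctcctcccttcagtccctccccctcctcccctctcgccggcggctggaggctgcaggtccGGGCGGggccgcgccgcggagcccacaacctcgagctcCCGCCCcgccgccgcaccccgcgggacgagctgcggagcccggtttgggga
Grik3: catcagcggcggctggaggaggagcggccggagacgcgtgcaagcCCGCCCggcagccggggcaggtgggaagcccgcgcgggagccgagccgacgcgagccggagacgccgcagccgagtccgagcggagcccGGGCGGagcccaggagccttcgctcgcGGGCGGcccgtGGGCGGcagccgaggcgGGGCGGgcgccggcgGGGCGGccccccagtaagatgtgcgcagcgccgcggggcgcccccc
The Chrm2 and Glrb windows each held 1 GC box and the Chrna4 and Grik3 windows 3 and 6, with 50.0%, 62.4%, 74.4% and 82.0% of G and C bases in that order. The motif lay in 32.7% of all 32851 RefSeq windows of this length and in 44.8% of the 58 windows of members. Of the 50 members with a window, 3 of 6 called higher in TRAP and 8 of 14 called lower held it. The difference between these shares was not tested.

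In TRAP against SC over all genotypes and ages, 8 of the 66 tested members were called higher and 19 lower, at an adjusted p under 0.05 and a change of at least 2-fold (edgeR quasi-likelihood test, Benjamini-Hochberg adjustment over 18838 genes). Of all genes tested, 10.4% were called higher and 26.1% lower (36.5% in all), against 12.1% and 28.8% of the members, so the receptors as a whole stood near the background. At the adjusted p alone, 53 members passed (25 higher and 28 lower), where 75.4% of all genes did. The median log2 change was 0.03 over the members and −0.17 over all genes. All 27 called members had the same sign in each genotype, and 14 of them were called in each genotype on its own, namely Gabra2, Gabrd, Grin3b, Chrm2 and Chrnb4 on the higher side and Chrna2, Chrna4, Chrm1, Chrm5, Gabra4, Gabrb2, Glra3, Grik3 and Grm3 on the lower side. In bulk libraries fewer cells of a type and less RNA per cell cannot be told apart.

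**Figure D1:**
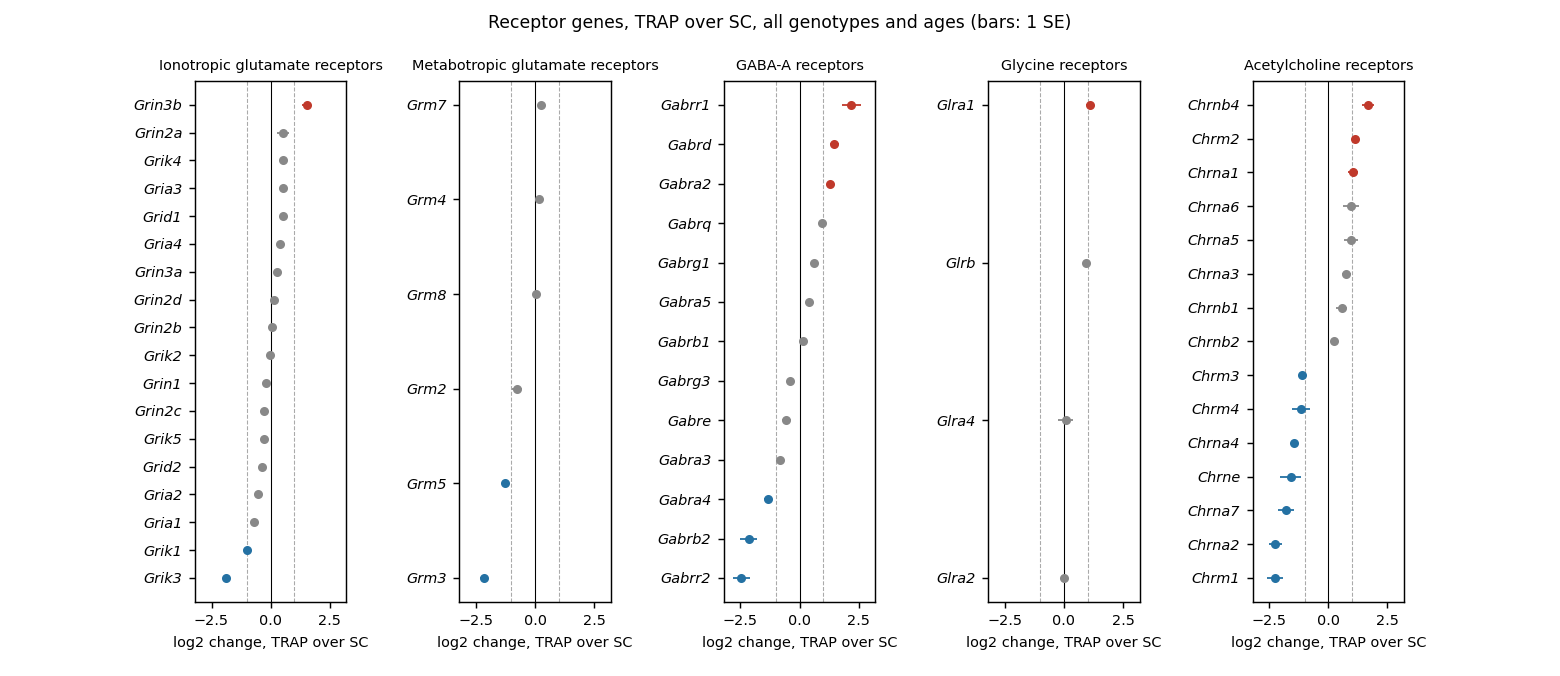
Fitted log2 change of each receptor gene in TRAP over SC (points) with 1 standard error (bars), in panels by transmitter. Red points were called higher and blue points lower, dashed lines mark 2-fold, and the 56 members drawn leave out those with a group at 0 counts and 4 that are not reported. Grin3b, Gabra2, Gabrd, Chrm2 and Chrnb4 lie to the right of 2-fold and Grik3, Grm3 and Chrna4 to the left.

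Among the muscarinic receptors, which couple acetylcholine to G proteins, 1 of 5 was called higher and 4 lower. Chrm2, the M2 receptor, ran from 61.4 CPM through a median of 134 to 179 in TRAP and from 33.5 through 56.1 to 106 in SC. In 21 of the 25 TRAP libraries it lay above every SC library. Its log2 change was 1.12 (SE 0.09, adjusted p = 1.54e-16, edgeR). The other muscarinic receptors went the other way. Chrm3, the M3 receptor, had a median of 4.46 CPM in TRAP and 10.3 in SC, with 23 TRAP libraries below every SC library and a log2 change of −1.10 (SE 0.14). Chrm1 was lower by −2.27 (SE 0.33) and Chrm4 by −1.17 (SE 0.37) on the log2 scale, both from medians under 1 CPM in either fraction. Chrm5 had a single count in the 25 TRAP libraries together and 319 in the 31 SC libraries, and no fold is given for it. Chrm2 thereby made up a median of 96.2% of all muscarinic counts in TRAP (86.1 to 98.2%) and 82.6% in SC (76.8 to 90.1%).

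The glycine receptor is the main partner of fast inhibition in the cord, and its beta subunit ties the channel to the scaffold gephyrin. Glrb, that subunit, had the highest level of all members per length of exon in both fractions, with a median of 175 CPM per kilobase in TRAP and 86.6 in SC. It ran from 330 CPM through a median of 816 to 1723 in TRAP and from 264 through 403 to 911 in SC. Its log2 change of 0.92 (SE 0.09, adjusted p = 2.62e-13, edgeR) stayed short of 2-fold, and 7 TRAP libraries lay above every SC library. Of the alpha subunits, which bind glycine, Glra1, the main adult form, had 4.83 to 49.3 CPM with a median of 12.8 in TRAP and 2.89 to 13.0 with a median of 5.89 in SC, and was called higher at a log2 change of 1.10 (SE 0.17). Without hTDP-43 A315T 14 weeks TRAP replicate 1 it came to 0.92 and without hTDP-43WT 9 weeks TRAP replicate 1 to just under 2-fold, so its call sits at the fold threshold. Glra2, known as the fetal form, was at 15.7 CPM in TRAP and 14.9 in SC, with a log2 change of 0.02 (SE 0.13, adjusted p = 0.911). Glra3 had 52 counts over the TRAP libraries, present in 10 of 25, and 1184 over the SC libraries, present in 31 of 31. The glycine receptor alphas of TRAP were thus read almost wholly from Glra1 and Glra2, at medians of 42.2% and 56.9% of alpha counts, against 27.4% and 68.8% in SC, with ranges that overlapped for both.

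**Figure D2:**
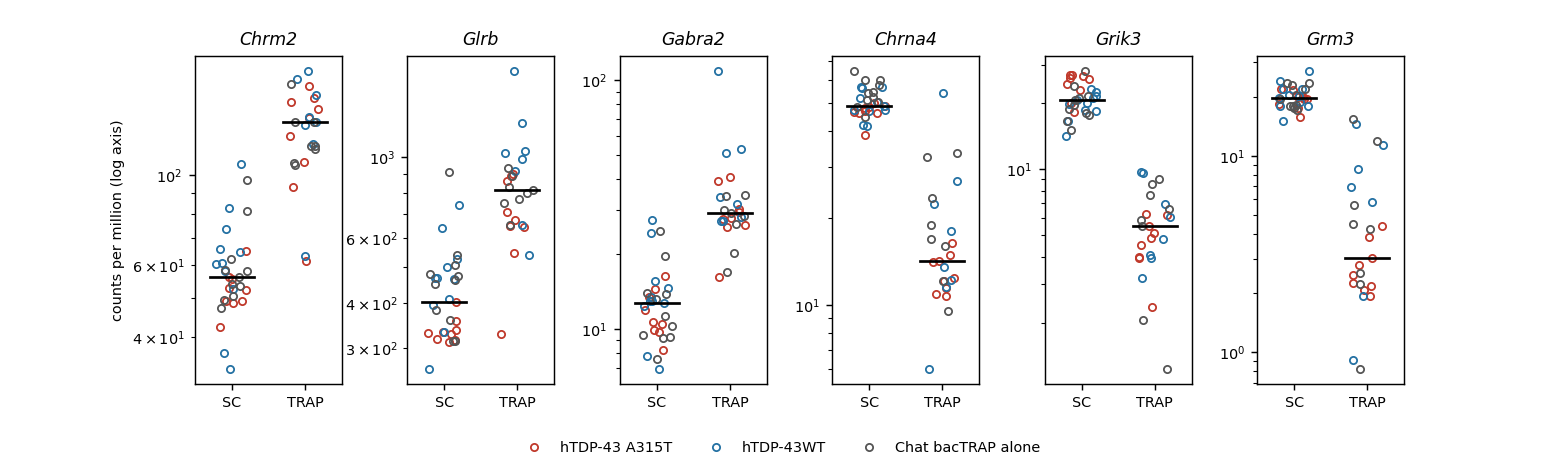
CPM (log axis) of 6 receptor genes in each SC and TRAP library, coloured by genotype; the bar is the median over all libraries of the fraction, and 1 TRAP library without Grm3 counts is not drawn. Chrm2, Glrb and Gabra2 sit higher in TRAP and Chrna4, Grik3 and Grm3 lower, and only the Grik3 values do not overlap.

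GABA-A receptors are pentamers of alpha, beta and gamma subunits, with delta in place of gamma in receptors outside the synapse. Of the 6 alpha subunits, 1 was called higher and 2 lower. Gabra2 ran from 16.2 CPM through a median of 29.2 to 109 in TRAP and from 6.91 through 12.7 to 27.4 in SC, with 17 TRAP libraries above every SC library. It rose by a log2 change of 1.30 (SE 0.13, adjusted p = 3.43e-13, edgeR). Gabra5 moved the same way by less, with medians of 93.9 and 67.5 CPM and a log2 change of 0.41 (SE 0.08). Gabra3, the most abundant alpha of SC, had medians of 85.4 CPM in TRAP and 152 in SC, a log2 change of −0.83 (SE 0.08) and 21 TRAP libraries below every SC library. Gabra4 was called lower at −1.34 (SE 0.16), from a median of 14.9 CPM in SC to 5.09 in TRAP. Gabra6, a subunit of cerebellar granule cells, had 23 counts over the TRAP libraries, in 3 of them, and 879 over the SC libraries. Of the latter, 764 came from hTDP-43 A315T 14 weeks SC replicate 1, at 8.68 CPM.

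The make-up of the alpha subunits differed between the fractions. Gabra2 took 7.19 to 23.1% of alpha counts in TRAP with a median of 11.7%, and 2.44 to 5.82% in SC with a median of 3.84%. Gabra3 took 18.8 to 41.6% in TRAP and 44.1 to 53.0% in SC. For both subunits the ranges of the TRAP and SC libraries did not overlap. Gabra5 took a median of 35.5% in TRAP and 22.4% in SC, and it was the largest share of the TRAP median where Gabra3 was the largest of SC. Per length of exon the medians of Gabra5 were 48.5% and 31.6%. Depth limits these shares, since the shallowest TRAP library held 144 GABA-A alpha counts.

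**Figure D3:**
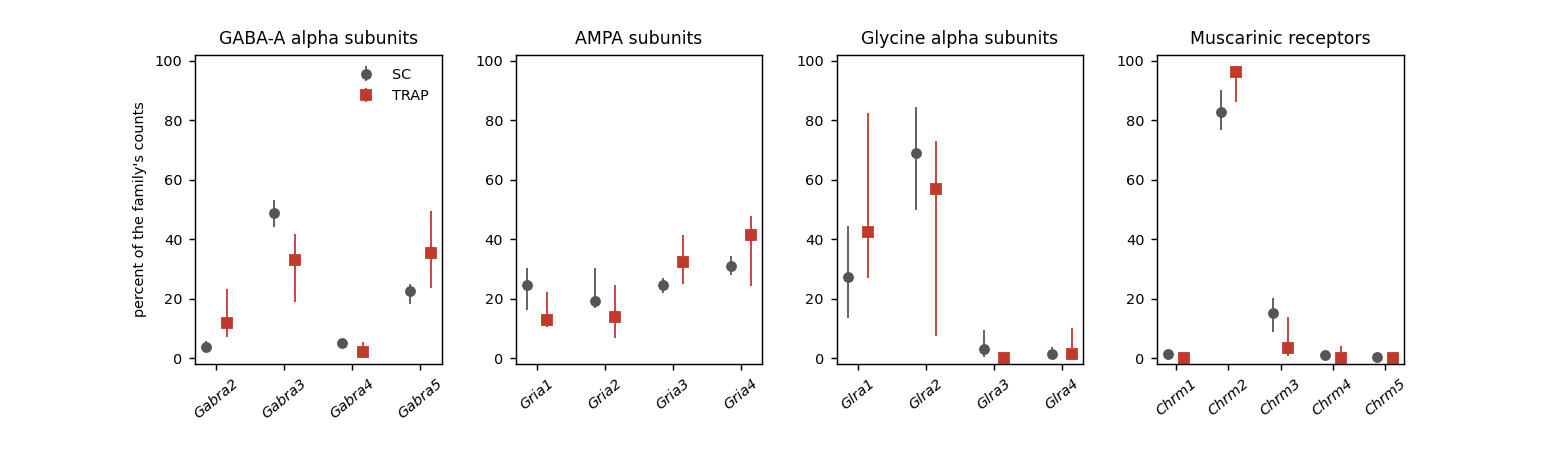
Percent of a family's counts taken by each subunit or receptor in SC (grey circles) and TRAP (red squares) libraries; symbols are medians over 31 and 25 libraries and bars run from the lowest to the highest library. Not every GABA-A alpha subunit is drawn. Gabra2 is higher and Gabra3 lower in TRAP with no overlap, and Chrm2 takes most muscarinic counts in both fractions.

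Of the other GABA-A subunits, Gabrb2 was called lower at −2.16 (SE 0.36), with medians of 1.10 CPM in TRAP and 4.12 in SC. Gabrd, the extrasynaptic delta subunit, ran from 0 through a median of 3.82 to 8.57 CPM in TRAP and from 0.306 through 1.43 to 3.54 in SC, and was called higher at 1.47 (SE 0.19, adjusted p = 6.77e-10, edgeR). Gabrq, the theta subunit, fell just short of 2-fold at 0.97 (SE 0.11), with medians of 14.2 and 7.35 CPM. The rho subunits were all rare. Gabrr1 was called higher at 2.20 (SE 0.39) from medians of 0.284 and 0.0567 CPM, and its call was lost without hTDP-43WT 9 weeks TRAP replicate 3 (log2 change 1.24, adjusted p = 0.995, edgeR). Gabrr2 was called lower at −2.46 (SE 0.35), with medians of 0.0960 and 1.59 CPM.

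The AMPA receptor subunits, which carry fast glutamate transmission, stayed within 2-fold, and all 4 passed the adjusted p. Gria2, the subunit that makes the channel impermeable to calcium, ran from 24.6 CPM through a median of 56.4 to 136 in TRAP and from 55.1 through 82.7 to 228 in SC, with a log2 change of −0.55 (SE 0.12, adjusted p = 4.27e-05, edgeR). Gria1 had medians of 53.7 and 103 CPM, a log2 change of −0.70 (SE 0.07) and 21 TRAP libraries below every SC library. Gria3 and Gria4 went up, by 0.51 (SE 0.08) and 0.40 (SE 0.07), to medians of 154 and 175 CPM in TRAP. Gria3 and Gria4 together with Gria1 and Gria2 split the AMPA counts of TRAP at median shares of 32.4%, 41.5%, 12.7% and 13.8% in that order, against 24.6%, 30.9%, 24.5% and 19.3% in SC. Per length of exon the median share of Gria2 was 6.93% in TRAP and 9.67% in SC.

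The NMDA receptor needs the obligate subunit Grin1 and 1 or more GluN2 or GluN3 subunits. Grin1 ran from 57.1 CPM through a median of 128 to 431 in TRAP and from 88.1 through 168 to 290 in SC, and its log2 change of −0.19 (SE 0.15) did not pass the test (adjusted p = 0.245, edgeR). Of the GluN2 subunits none was called, and Grin2d and Grin2b held medians of 47.8% and 38.5% of their counts in TRAP and 48.7% and 34.6% in SC. Grin3b, a glycine-binding subunit known from motor neurons, was called higher at 1.52 (SE 0.20, adjusted p = 1.57e-09, edgeR), with medians of 9.94 CPM in TRAP and 3.07 in SC and 16 TRAP libraries above every SC library. Its value is uncertain, since 32.1% of its exonic bases are shared with Tmem259 on the opposite strand and the library kit does not mark strand.

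Kainate receptors set presynaptic release and slow currents. Grik3 showed the cleanest separation of all members: it ran from 1.23 CPM through a median of 5.50 to 9.69 in TRAP and from 14.2 through 20.7 to 28.0 in SC. All 25 TRAP libraries lay below all 31 SC libraries, which held for 1 of 66 members and for 1.49% of all genes tested, and no member had every TRAP library above every SC library, against 2.77% of genes. The log2 change of Grik3 was −1.89 (SE 0.12, adjusted p = 8.49e-20, edgeR). Grik1 had medians of 4.17 and 8.59 CPM, with 24 TRAP libraries below every SC library. It sat at the 2-fold threshold itself (SE 0.11 on the log2 scale) and fell short of it without any of 27 single libraries, to −0.97 at the most. Grik4 was higher by 0.52 (SE 0.09), and Grik2 and Grik5 had log2 changes of −0.02 (SE 0.09) and −0.28 (SE 0.14) that did not pass the test.

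The metabotropic glutamate receptors act through G proteins. Grm3, a group II receptor made by astrocytes as well as neurons, ran from 0 through a median of 3.03 to 15.4 CPM in TRAP and from 15.1 through 19.6 to 27.0 in SC, and was lower by −2.16 (SE 0.18, adjusted p = 8.71e-16, edgeR). In 24 TRAP libraries it lay below every SC library. Grm5, of group I, was lower by −1.25 (SE 0.16), at medians of 18.3 and 50.5 CPM. None of the 3 group III receptors tested was called. Most markers of other cells were also lower: 9 of 10 astrocyte markers, 10 of 10 of oligodendrocytes, 6 of 6 of oligodendrocyte precursors, 8 of 8 of microglia, 6 of 8 of endothelium and pericytes and 11 of 12 of interneurons were called lower in TRAP. Their summed levels were 2279 to 5296 CPM for astrocytes and 358 to 1053 for interneurons in TRAP, against 4421 to 5741 and 1315 to 1702 in SC, with no marker at 0 in all TRAP libraries. Oligodendrocyte markers summed to 1784 to 24380 CPM in TRAP and 17570 to 29380 in SC, so these ranges overlapped. At 14 weeks the oligodendrocyte medians in TRAP were 2394 CPM in hTDP-43 A315T, 8818 in hTDP-43WT and 4632 in Chat bacTRAP alone. S100b, the astrocyte marker that was not lower (log2 change 1.00, SE 0.06), took a median of 62.8% of the astrocyte sum in TRAP and 16.6% in SC. The other 9 summed to 818 to 2832 CPM in TRAP and 3606 to 4901 in SC, a separation seen after S100b was set apart for its values. Their part in the lower receptor levels was not tested.

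The neuronal nicotinic subunits split into opposite directions, with 1 of 10 called higher and 5 lower. Chrna4 and Chrnb2 form the commonest brain receptor. Chrna4 ran from 6.01 CPM through a median of 14.3 to 54.2 in TRAP and from 38.6 through 48.7 to 64.5 in SC, and 24 TRAP libraries lay below every SC library, at a log2 change of −1.46 (SE 0.12, adjusted p = 8.23e-16, edgeR). Its partner Chrnb2 did not follow: its medians were 55.5 and 48.6 CPM and its log2 change 0.22 (SE 0.06). Of its exonic bases, 16.3% are shared with Adar on the opposite strand, so its value is uncertain. How reads of the shared bases were counted was not looked at. Chrna2, known in the cord from Renshaw cells, ran from 0 through 0.642 to 4.08 CPM in TRAP and from 3.36 through 4.25 to 5.29 in SC, a change of −2.25 (SE 0.27) with 23 TRAP libraries below every SC library. Chrna7, which forms receptors of a single subunit, was lower by −1.79 (SE 0.34) at medians of 0.816 and 2.72 CPM. Chrnb3 and Chrna10 were called lower from medians of 0 CPM in TRAP and 0.233 and 0.0620 CPM in SC. For Chrna10, 39.0% of exonic bases are shared with Art1 on the opposite strand, and its call was lost without each of 8 single libraries, hTDP-43 A315T 14 weeks TRAP replicate 1 (adjusted p = 0.0553) and SC replicate 2 of Chat bacTRAP at 14 weeks (0.0775, edgeR) among them.

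Chrna3, Chrna5 and Chrnb4 lie next to each other in the genome and form the ganglionic type of nicotinic receptor, and all 3 had a higher median in TRAP. Chrnb4 ran from 0 through a median of 3.73 to 7.65 CPM in TRAP and from 0.636 through 1.10 to 2.06 in SC, with 18 TRAP libraries above every SC library, and was called higher at 1.67 (SE 0.25, adjusted p = 3.31e-08, edgeR). Chrna3 changed by 0.75 (SE 0.18) and Chrna5 by 0.94 (SE 0.30), both past the adjusted p and short of 2-fold. Chrna6 had a log2 change of 0.97 (SE 0.35), which turned to −0.25 without hTDP-43WT 9 weeks TRAP replicate 3. Of the muscle subunits, Chrna1, the alpha subunit of the endplate, was called higher at 1.03 (SE 0.22) from medians of 1.16 and 0.671 CPM, and it dropped below 2-fold without any of 9 single libraries (lowest 0.90, without Chat bacTRAP 14 weeks TRAP replicate 2) and under 6 of 8 other settings, which gave 0.82 to 1.05. Chrne, the adult endplate subunit, was called lower at −1.60 (SE 0.45), with a median of 0 CPM in TRAP and 0.231 in SC. Skeletal muscle markers summed to 87.1 to 1306 CPM in TRAP and 225 to 1441 in SC, 7 of the 10 being called lower. Pvalb, which interneurons also make, took a median of 80.1% of that sum in TRAP and 73.9% in SC, and the other 9 summed to 4.80 to 991 CPM in TRAP and 9.04 to 1110 in SC. Pvalb was set apart after its values were seen, and the part of muscle RNA was not tested.

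Without the 3 control TRAP libraries that hold Lamr1-ps1 reads, 6 members were called higher and 18 lower in TRAP over SC. Without the 2 control libraries with the most glial RNA, 11 were called higher and 19 lower. The shares of all genes under these settings are not given here, so the shifts cannot be read as particular to receptors.

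Genes that serve these receptors were read from 3 further lists. Of all genes tested in TRAP over SC, 10.4% were called higher and 26.1% lower, and the counts below stand beside these shares. Of 40 auxiliary subunits and scaffolds, 1 was called higher and 11 lower, at a median log2 change of −0.32. Tmem35a, a chaperone of nicotinic receptors, was the one called higher, at 1.135 (SE 0.05, medians 247 and 110 CPM). Nptx1, a secreted clusterer of AMPA receptors, was lower by −1.82 (SE 0.11) and Dlg1, a scaffold, by −1.18 (SE 0.08). Gabarap, a trafficking partner of GABA-A receptors, was higher by 0.89 (SE 0.07), below 2-fold. Of 22 genes of transmitter synthesis and transport, 2 were called higher and 15 lower. Some genes of this list are also marker genes counted above, such as Slc5a7 of motor neurons and Slc32a1 and Gad2 of interneurons. Its count is therefore not independent of those markers. Slc5a7, the choline transporter, was higher by 3.01 (SE 0.12). Slc32a1, the vesicular transporter of GABA and glycine, was lower by −2.16 (SE 0.09), Slc6a9, a glycine transporter of glia, by −3.94 (SE 0.19) and Gad2, which makes GABA, by −1.66 (SE 0.10). Of 28 GABA-B and monoamine receptors tested, 4 were called higher and 6 lower. Htr1d, a serotonin receptor, was higher by 1.94 (SE 0.09, medians 19.8 and 4.84 CPM), and Htr4 was lower by −3.53 (SE 0.35). Adra2a and Htr7 were higher by 0.67 (SE 0.06) and 0.74 (SE 0.07).

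Within each genotype, TRAP over SC called 29 of 66 members in hTDP-43 A315T mice, 18 in hTDP-43WT mice and 24 in mice with Chat bacTRAP alone, where 37.3%, 29.6% and 32.1% of all genes were called. These comparisons differ in the number of libraries and do not show a difference between genotypes. The difference itself was tested. Between hTDP-43 A315T and Chat bacTRAP alone no member was called for a difference in its TRAP over SC change by edgeR, DESeq2 or limma-voom, where edgeR called 0.664% of all genes and gave 6 members and 14.7% of all genes an unadjusted p under 0.05. Between hTDP-43 A315T and hTDP-43WT 1 member did, against 0.626% of genes: Gabrr2 had a log2 change of −4.27 in the first and −0.98 in the second, a difference of −3.29 (SE 0.83, adjusted p = 0.0459, edgeR). Without hTDP-43WT 9 weeks TRAP replicate 2, which held 60 of the 61 Gabrr2 counts of its group, that difference was −1.08 (adjusted p = 0.973). That left replicate 1, of 472447 counts, and replicate 3, which has Lamr1-ps1 reads, in the group. The call was lost without any 1 of 31 of the 37 libraries, and with the replicate number as a block (−2.13, adjusted p = 0.886, edgeR).

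In whole cord, no member was called between genotypes or ages in any of 9 comparisons by edgeR. Of all genes, 0.0212% were called at 14 weeks and 0.0372% at 9 weeks between hTDP-43 A315T and Chat bacTRAP alone, 0.0265% and 0.0212% between hTDP-43 A315T and hTDP-43WT, 0.00531% and 0% between the controls, and 0% between ages in each genotype. At an unadjusted p under 0.05 the members numbered 0 to 8 of 66 in these comparisons, where 0.196% to 4.63% of all genes passed. The spread behind these tests also took in the TRAP libraries, so changes within SC may have been missed. By limma-voom 1 or 2 members were called in each of the 4 comparisons of hTDP-43 A315T with a control, where it called 1.20% to 3.12% of all genes, so the members stood near that background. It called none in the other 5.

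The spread behind the TRAP comparisons that follow also took in the SC libraries, so their p-values may be too small. Over the 9 comparisons of genotypes or ages in TRAP, a median of 5.15% of all genes was called. In fits of the TRAP libraries alone that median was 0%. In TRAP at 14 weeks, hTDP-43 A315T against Chat bacTRAP alone called 5 members (10.4% of all genes), and against hTDP-43WT it called 2 (5.36% of all genes). The members called against Chat bacTRAP alone were Grm3, Gabrr2, Chrna10 and Chrne, which were lower, and Gabrr3, which was higher. Those against hTDP-43WT were Grm3 and Grm5, both lower. Grm3 was the 1 member called against both. It was at 3.85, 2.18, 2.78 and 2.09 CPM in the 4 hTDP-43 A315T libraries, at 8.54, 14.4, 11.3, 6.91 and 1.93 in the 5 hTDP-43WT libraries and at 15.4, 4.52, 5.60 and 2.53 in the 4 of Chat bacTRAP alone. The groups overlapped, since 1 hTDP-43WT library lay below the hTDP-43 A315T range and 1 of Chat bacTRAP alone within it. That hTDP-43WT library was replicate 5, which has Lamr1-ps1 reads, and the rest of its group lay above the hTDP-43 A315T range. The log2 change was −1.45 (SE 0.45, adjusted p = 0.0253) and −1.63 (SE 0.43, adjusted p = 0.0136, edgeR). Without Chat bacTRAP replicate 1 the first came to −0.66 (adjusted p = 0.402), and without hTDP-43WT replicate 2 the second came to −1.35 (adjusted p = 0.0532, edgeR). The first call was lost without 3 of 8 single libraries and the second without 2 of 9.

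Glial levels are set beside Grm3 here, and no association was computed. The control libraries with the most Grm3 at 14 weeks, Chat bacTRAP replicate 1 and hTDP-43WT replicates 2 and 3, had glial marker means of 6.13, 5.78 and 5.25 log2 CPM, while the 4 hTDP-43 A315T libraries had 3.41 to 4.07. Among the latter, replicate 2 had the highest glial mean and replicate 1 the most Grm3. The hTDP-43WT library with 1.93 CPM of Grm3 had a glial mean of 3.55 and is one of those with Lamr1-ps1 reads. With the glial mean as a covariate in a fit of the TRAP libraries alone, the log2 changes of Grm3 were −0.53 (adjusted p = 0.888) and −0.60 (adjusted p = 0.947), and in that fit without the covariate they were −1.45 (adjusted p = 0.380) and −1.65 (adjusted p = 0.377, edgeR). The high glial means were all in controls, so glial level and genotype cannot be told apart here, and the cause was not tested. Grm5 was at 12.9, 22.9, 18.3 and 16.4 CPM in the hTDP-43 A315T libraries and at 20.8, 71.4, 77.8, 32.4 and 20.7 in those of hTDP-43WT, a change of −1.34 (SE 0.39, adjusted p = 0.0255, edgeR), and its higher values stood in the same 2 hTDP-43WT libraries with high glial means.

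**Figure D4:**
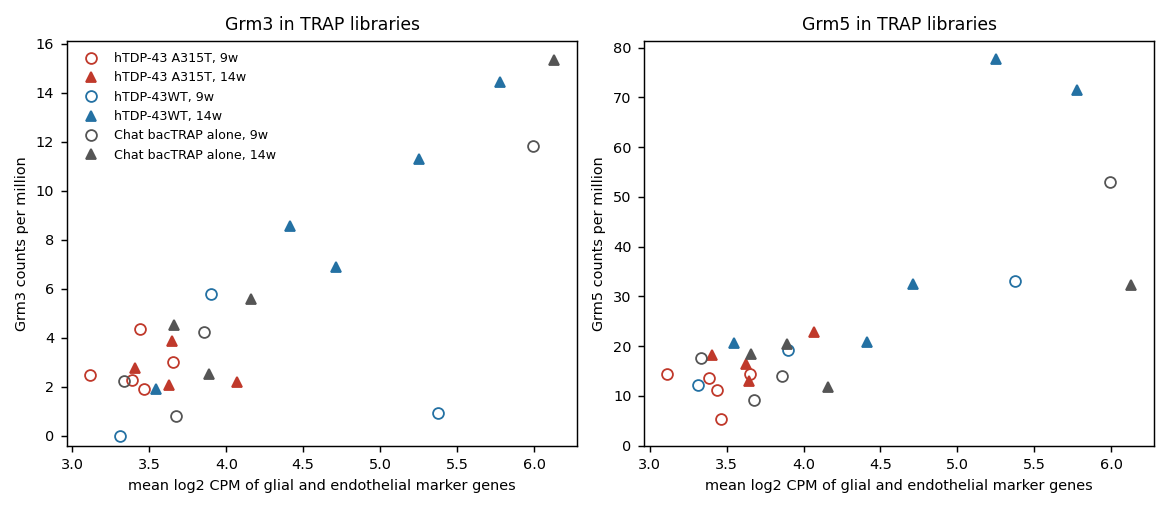
Grm3 (left) and Grm5 (right) in CPM against the averaged log2 CPM of glial and endothelial marker genes, 1 point for each of the 25 TRAP libraries, coloured by genotype, as open circles at 9 weeks and triangles at 14 weeks. All 9 hTDP-43 A315T libraries sit at glial means of 3.12 to 4.07, and the highest Grm3 and Grm5 values belong to control libraries with glial means above 5.

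The other members called at 14 weeks rested on few counts. Chrne had 55 counts in Chat bacTRAP replicate 1 and 0 in the other 3 libraries of that group, and 5, 0, 0 and 0 in the hTDP-43 A315T libraries. Chrna10 had 57 in the same library, 0 in the other 3 of its group and 1 over the hTDP-43 A315T libraries. That library also had the most skeletal muscle marker RNA of all TRAP libraries, 1306 CPM. Without it the Chat bacTRAP group held 0 counts of both genes, so no change can be given. Gabrr2 was at 1.96, 0.411, 0 and 0.842 CPM in Chat bacTRAP alone and at 0 to 0.104 CPM in hTDP-43 A315T, a change of −4.05 (SE 1.07, adjusted p = 0.00918) that came to −2.45 (adjusted p = 0.288, edgeR) without the same replicate 1. Gabrr3 had 23 counts in the hTDP-43 A315T libraries, 56 in those of hTDP-43WT and 0 in those of Chat bacTRAP alone, so no fold is given.

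The controls were also compared with each other. At 14 weeks, hTDP-43WT against Chat bacTRAP alone called 5 members, beside 13.2% of all genes: Chrm4, Chrna6 and Chrnb1 lower and Grm5 and Gabrr3 higher. Chrm4 was at 5.18 CPM in Chat bacTRAP replicate 3 and at 0 to 0.842 in the other 3, and its change turned from −2.61 to 0.09 without that library. Without it Chrna6 came from −2.45 to −1.25 and Chrnb1 from −1.85 to −1.01, neither passing the test. At 9 weeks, hTDP-43 A315T against hTDP-43WT called 3 members, beside 2.14% of all genes. Chrna4 was at 10.7 to 14.9 CPM in the 5 hTDP-43 A315T libraries and at 11.5 to 54.2 in the 3 of hTDP-43WT, with a change of −1.25 (SE 0.32, adjusted p = 0.0203) that came to 0.05 without hTDP-43WT replicate 2. Gabrr2 changed by −3.78, and came to 0.65 without the same library. Grin2a, a GluN2 subunit of mature synapses, was at 0.452 to 1.96 CPM against 0 to 0.212, a change of 3.80 (SE 0.92, adjusted p = 0.0146) that failed the test without it (adjusted p = 0.972, edgeR). Without that library the hTDP-43WT group held only replicate 1, of 472447 counts, and replicate 3, which has Lamr1-ps1 reads. No member was called at 9 weeks between hTDP-43 A315T and Chat bacTRAP alone or between the controls, where 0.541% and 0.223% of all genes were. By edgeR, 9 and 8 members had an unadjusted p under 0.05 there, as did 2258 and 2515 of the 18838 genes, a share near that of the members, and DESeq2 and limma-voom called 0 members in both.

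Between 14 and 9 weeks in TRAP, no member was called in hTDP-43 A315T mice (0.0106% of genes were, 4 members and 6.89% of genes had an unadjusted p under 0.05 by edgeR, and DESeq2 and limma-voom called 0), 5 were in hTDP-43WT mice (7.03% of genes) and 5 in mice with Chat bacTRAP alone (5.15% of genes). Chrna3 was called lower at 14 weeks in both control genotypes. It was at 0.622 to 5.65 CPM at 14 weeks and 6.12 to 11.1 at 9 weeks in hTDP-43WT (log2 change −1.65, SE 0.49, adjusted p = 0.0260), where the groups did not overlap, and at 0 to 6.73 and 2.499 to 11.6 in Chat bacTRAP alone (−1.65, SE 0.51, adjusted p = 0.0418, edgeR). Among the hTDP-43WT libraries, 9 weeks replicate 3 and 14 weeks replicate 5 have Lamr1-ps1 reads, and 9 weeks replicate 1 held 472447 counts. In the first the call was lost without hTDP-43WT 9 weeks TRAP replicate 2 (log2 change −1.39, adjusted p = 0.324) and without 14 weeks TRAP replicate 3 (−1.42, adjusted p = 0.0687, edgeR), the change staying of like size. In the second it was lost without each of 6 of the 8 libraries (highest adjusted p = 0.145, without Chat bacTRAP 14 weeks replicate 3). In hTDP-43WT mice, Grin2a was higher at 14 weeks by 2.73 (SE 0.92), and Grik5 and Grin3b were lower by −1.29 (SE 0.36) and −1.56 (SE 0.53). These 3 lost their call without hTDP-43WT 9 weeks TRAP replicate 2, at log2 changes of 1.70, −0.39 and −1.05. The 9 weeks group then held only replicate 1, of 472447 counts, and replicate 3, which has Lamr1-ps1 reads. In mice with Chat bacTRAP alone, Chrna1 was higher by 1.91 (SE 0.58), and by 1.15 (adjusted p = 0.209) without 14 weeks replicate 2, and Chrne and Chrna10, also called, had no counts at 14 weeks outside replicate 1. Gabrr3 had 78 counts at 9 weeks and 0 at 14 weeks. Each of the 26 member calls between genotypes or ages was lost without at least 1 single library, none was called by limma-voom, and 24 were also called by DESeq2. Of the 18 that could be fitted in the TRAP libraries alone, none was called there.

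The spread of the receptors within groups was shared between genes. In the 31 SC libraries, after each group's mean was taken off, 1 axis held 66.1% of the spread of the 40 members with a median of at least 5 CPM. Gria2, Grm5, Gabra2, Gabrg1 and Glrb went one way along it and Grin1, Grik5, Grm4, Grin2d and Grin2c the other. The 31 members on the first side had a median of 42.9% of G and C bases in their longest transcript and the 9 on the other side 59.4%, and across these genes, which are not independent, the weight on the axis went with that percentage at Pearson's r = −0.91 and Spearman's rho = −0.86. The axis ran from hTDP-43WT 9 weeks SC replicate 6 at one end to Chat bacTRAP 14 weeks SC replicate 5 at the other, with hTDP-43WT 14 weeks SC replicate 5 and hTDP-43WT 9 weeks SC replicate 4 next to the latter. Gria2 was thus at 228 CPM in Chat bacTRAP 14 weeks SC replicate 5 and at 170 in hTDP-43WT 14 weeks SC replicate 5, against a median of 82.7 over SC. In the 22 TRAP libraries of at least 3000000 counts, the leading axis held 27.6% of the spread of 39 members, and the corresponding correlations were −0.82 and −0.77. What base composition and the libraries' handling contributed was not tested.

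**Figure D5:**
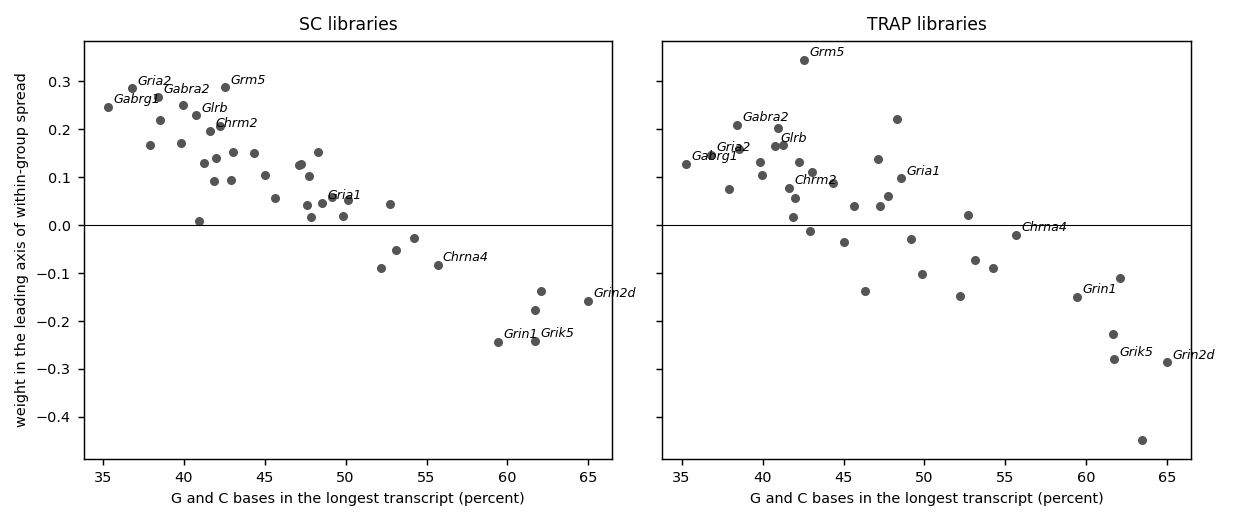
Weight of each receptor gene on the leading axis of within-group spread (vertical axis, no unit) against the percent of G and C bases in its longest transcript, for SC (left, 40 genes in 31 libraries) and TRAP (right, 39 genes in 22 libraries). Genes poor in G and C such as Gria2 and Gabra2 have positive weights and genes rich in them such as Grin1, Grik5 and Grin2d negative ones.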

How the data were processed

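The 56 libraries were polyadenylated RNA of TRAP eluates and of whole cord lysates. The authors aligned the reads with STAR to GRCm38, counted them per gene with featureCounts at standard parameters and deposited raw counts for each library. They also deposited a normalized signal, the raw count divided by 1 DESeq2 size factor per library, which was used here only for those size factors. Of 43629 gene identifiers, 42462 had a symbol in GENCODE M21 and 1167 had none.

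Counts were tested with edgeR 4.0.16 (R 4.3.3): filterByExpr by group, TMM normalization, 1 fit over the 12 groups and robust quasi-likelihood tests, with Benjamini-Hochberg adjustment over 18838 genes in each of 24 comparisons. A gene was called at an adjusted p under 0.05 and a change of at least 2-fold. Levels are CPM on TMM-adjusted library sizes, and levels per kilobase use the exonic union length. TRAP over SC was the mean over the 6 genotype and age groups. The steps were run on simulated counts drawn with the same spread trend for both fractions, in a single comparison. Unequal spread of the fractions was therefore not tried. Where a group had 0 counts no fold is given, and fitted values under an alternative that leaves such a group are marked as no measured change. Promoter windows came from RefSeq, with an entry for 50 of the 71 genes.

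Alternatives were the authors' size factors, DESeq2 1.42.0, limma-voom (limma 3.58.1), no filter on low counts, fits within a fraction with and without a glial covariate, the replicate number as a block, libraries left out and calls at the adjusted p alone. Same-numbered replicates were checked for shared deviations. Replicates came from the labels. The receptor families, gene lists and tests were chosen with earlier results of these data known. Single-gene results for 4 members are not reported here, though they stay in the fits and counts. Values were given for those called between genotypes or ages, for up to 2 called rises and falls per family, and for a fixed set of subunits, with up to 4 genes per further list by smallest p. Depth ranged from 472447 to 255802240 counts, so zeros in the shallowest TRAP libraries limit rare genes most.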

Additional observations from a re-analysis of the deposited data

Results flagged for a closer look

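Single libraries that stood far from the rest of their group were looked for in 313 combinations of a member and a group, by Dixon's 95% critical value. There were 33 such cases, where 1 in 20 of the combinations is 15.7. That number is no fair measure of chance. Some members were picked for calls that single libraries carried, and genes of a library are not independent. Values are CPM, with the range of the other libraries of the group after each.

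hTDP-43 A315T 9 weeks TRAP replicate 3 stood apart in Chrm1 at 1.235 (others 0.1506 to 0.357) and Grik5 at 228.9 (others 49.69 to 73.84). Chat bacTRAP 14 weeks TRAP replicate 2 stood apart in Chrm1 at 1.233 (others 0) and Chrna1 at 9.041 (others 1.868 to 2.328). Chat bacTRAP 14 weeks TRAP replicate 3 stood apart in Chrm4 at 5.177 (others 0 to 0.8416) and Grik1 at 5.55 (others 3.349 to 3.699). hTDP-43 A315T 14 weeks SC replicate 3 stood apart in Chrna1 at 1.035 (others 0.5662 to 0.636), Gria1 at 94.15 (others 107.8 to 108) and Grik3 at 18.22 (others 25.8 to 26.8). hTDP-43 A315T 9 weeks TRAP replicate 1 stood apart in Chrna1 at 2.008 (others 1.115 to 1.354) and Chrna6 at 2.9 (others 0.9025 to 1.421). Chat bacTRAP 14 weeks SC replicate 2 stood apart in Chrna1 at 1.717 (others 0.5856 to 0.833) and Chrna10 at 1.016 (others 0.02872 to 0.07818). Chat bacTRAP 14 weeks TRAP replicate 1 stood apart in Chrna10 at 2.328 (others 0) and Chrne at 2.246 (others 0). hTDP-43WT 14 weeks SC replicate 5 stood apart in Gabra2 at 27.39 (others 12.67 to 15.64), Glra2 at 24.73 (others 14.22 to 16.76), Glra3 at 4.027 (others 0.5039 to 0.8446), Glrb at 740.6 (others 408.9 to 468.1), Gria2 at 169.8 (others 84.77 to 94.14) and Grm5 at 92.44 (others 50.48 to 59.37). hTDP-43WT 9 weeks SC replicate 4 stood apart in Gabra2 at 24.42 (others 6.914 to 13.43) and Glra1 at 10.4 (others 4.177 to 5.666). hTDP-43WT 14 weeks TRAP replicate 3 stood apart in Glra1 at 43.13 (others 11.11 to 15.36) and Grin1 at 218.0 (others 75.25 to 112.8).

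In hTDP-43 A315T 14 weeks TRAP replicate 2 the case was Chrm4 at 1.673 (others 0 to 0.1043). In hTDP-43WT 14 weeks TRAP replicate 1 the case was Chrna10 at 1.008 (others 0 to 0.04543). In hTDP-43WT 14 weeks TRAP replicate 5 the case was Chrna6 at 1.063 (others 0 to 0.2228). In hTDP-43 A315T 9 weeks SC replicate 4 the case was Gabra2 at 14.44 (others 9.753 to 10.69). In Chat bacTRAP 9 weeks TRAP replicate 3 the case was Gabra2 at 16.91 (others 28.35 to 30.15). In hTDP-43 A315T 14 weeks SC replicate 1 the case was Gabra6 at 8.677 (others 0.01887 to 0.1165). In Chat bacTRAP 14 weeks TRAP replicate 4 the case was Gabrb2 at 2.314 (others 0). In Chat bacTRAP 9 weeks SC replicate 2 the case was Glra3 at 1.605 (others 0.104 to 0.4443).

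The TRAP over SC change of Gabrr2 differed between hTDP-43 A315T and hTDP-43WT mice by −3.29 on the log2 scale (SE 0.83, adjusted p = 0.0459, edgeR), and 60 of the 61 Gabrr2 counts of the 9 weeks hTDP-43WT TRAP group came from replicate 2. Without it, which left only replicates 1 and 3 in that group, the difference was −1.08 (adjusted p = 0.973).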

How the results depend on the processing

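Over all genotypes and ages, TRAP over SC gave 6 to 11 members higher and 17 to 20 lower under the 8 alternatives beside calls at the adjusted p alone (25 higher), and 6 to 10 and 17 to 19 without any 1 library. The shares of all genes in TRAP over SC under these alternatives are not given beside them. At the adjusted p alone, 36 members were called within hTDP-43WT and 40 within Chat bacTRAP alone. The shares of all genes at that threshold within a genotype are not given, so these counts cannot be read as particular to receptors. Of the members called in TRAP over SC, Chrna1 lost its call under 6 of 8 settings, Glra1 and Chrna10 under 3, Grik1 and Gabra6 under 2 and Gabrr1 under 1. Calls between genotypes or ages moved far more. TRAP libraries under 3000000 counts gave 0 counts for many rare members, and 22 of the 26 calls were kept without these libraries. The causes were not tested.

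Replicate numbers were not taken to pair the samples. The study kept part of each lysate as input, but the labels do not tie it to a TRAP library. Deviations of same-numbered libraries correlated at −0.284 to 0.181 between TRAP and SC, with 5 of 9 pairs over 0.1 in hTDP-43 A315T and 0 of 16 in the controls, at −0.276 to 0.399 between genotypes and at −0.285 to 0.333 between ages. With the replicate block 7 members were higher and 20 lower in TRAP over SC, 0 differed between hTDP-43 A315T and hTDP-43WT in TRAP over SC, 2 were called in hTDP-43WT against Chat bacTRAP at 14 weeks, 1 in hTDP-43 A315T against hTDP-43WT at 9 weeks and 2 between ages in hTDP-43WT, and 11 of the 26 calls between genotypes or ages were lost.

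The share of all genes called moved with the setting too. Shifts in the member counts below cannot be read as particular to receptors, as that share is not given for each comparison. Over the 9 comparisons of genotypes or ages in TRAP it had a median of 5.15% by edgeR as reported, 6.29% by DESeq2, 0% by limma-voom and in TRAP alone with or without the covariate, 2.22% with no filter, 3.63% with the replicate block, 10.3% without the 3 Lamr1-ps1 libraries, 3.72% without the 2 glial-rich ones and 5.0% without libraries under 3000000 counts. For TRAP at 14 weeks, hTDP-43 A315T against Chat bacTRAP (5 called) gave 8 by DESeq2, 0 by limma-voom, 0 in TRAP libraries alone with or without the glial covariate, 2 without the 2 control libraries richest in glial RNA and 8 without libraries under 3000000 counts. Against hTDP-43WT (2 called) it gave 5 by DESeq2, 0 by limma-voom, 0 in TRAP alone with or without the covariate, 7 without the 3 control libraries with Lamr1-ps1 reads, 4 without the 2 glial-rich ones and 5 at the adjusted p alone. The controls against each other (5 called) gave 8 by DESeq2, 0 by limma-voom and in TRAP alone with or without the covariate, 9 without the 3 Lamr1-ps1 libraries and 8 at the adjusted p alone. At 9 weeks, hTDP-43 A315T against hTDP-43WT (3 called) gave 5 by DESeq2, 0 by limma-voom and in TRAP alone with or without the covariate, 11 without the 3 Lamr1-ps1 libraries, 5 without libraries under 3000000 counts and 5 at the adjusted p alone. Without the 3 Lamr1-ps1 libraries, hTDP-43 A315T against Chat bacTRAP at 9 weeks gave 1 and the controls against each other 6, and the latter gave 1 without the 2 glial-rich libraries. Between ages, hTDP-43WT (5 called) gave 9 by DESeq2, 0 by limma-voom, 3 with no filter, 0 in TRAP alone with or without the covariate, 13 without the 3 Lamr1-ps1 libraries, 9 without the 2 glial-rich ones, 12 without libraries under 3000000 counts and 9 at the adjusted p alone. Chat bacTRAP (5 called) gave 0 by limma-voom and in TRAP alone with or without the covariate, 2 with no filter, 3 without the 3 Lamr1-ps1 libraries and 0 without the 2 glial-rich ones. The difference in TRAP over SC between hTDP-43 A315T and Chat bacTRAP gave 1 member without the 3 Lamr1-ps1 libraries and 1 without libraries under 3000000 counts, and that against hTDP-43WT gave 0 by limma-voom and 6 without the 3 Lamr1-ps1 libraries. In SC, limma-voom called 2 members against Chat bacTRAP and 1 against hTDP-43WT at 14 weeks, and 2 and 2 at 9 weeks.

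Without any 1 library the calls ran from 2 to 9, 0 to 7 and 3 to 10 for these comparisons at 14 weeks, from 0 to 10 for hTDP-43 A315T against hTDP-43WT and 0 to 6 for the controls at 9 weeks, from 0 to 12 and 2 to 8 between ages in hTDP-43WT and Chat bacTRAP, and from 0 to 1 and 0 to 4 for the differences in TRAP over SC against Chat bacTRAP and hTDP-43WT. The shares of all genes without any 1 library are not given, so these ranges cannot be read as particular to receptors.

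These log2 changes turned sign. In TRAP over SC, Chrna6 and Grin2a came to −0.60 and −0.30 without the 3 Lamr1-ps1 libraries and ran from −0.25 to 1.11 and −0.31 to 0.70 without any 1 library. Glra2, near 0, was −0.0795 with the authors' size factors, −0.075 by DESeq2, −0.0075 with no filter, −0.016 with the replicate block, −0.0036 without the 2 glial-rich libraries, −0.071 without libraries under 3000000 counts and −0.056 to 0.088 without any 1 library. Without Chat bacTRAP 14 weeks TRAP replicate 1, one of the 2 glial-rich libraries, its group held 0 counts of Chrna10 and Chrne, so the fitted values without it are set by that 0 and are no measured change. Without the 2 glial-rich libraries they came to 2.32 and 4.09 in hTDP-43 A315T against Chat bacTRAP at 14 weeks and to −2.13 and −3.87 between ages in Chat bacTRAP. Without any 1 library they ran from −7.88 to 2.32 and −7.81 to 4.08, and from −2.51 to 5.82 and −3.47 to 7.74, in that order. Chrm4 ran from −3.19 to 0.093 between the controls at 14 weeks, and Chrna4 and Gabrr2 from −1.70 to 0.053 and −4.51 to 0.65 in hTDP-43 A315T against hTDP-43WT at 9 weeks.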
